A study of Mus musculus with 6 samples.

Results

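Immediate early genes are transcribed within minutes of a stimulus, by transcription factors already present in the cell, and their transcripts are short-lived. Growth factors, stretch, stress and the handling of tissue after dissection can each induce them through MAP kinase, serum response factor and CREB signalling. The 10 genes followed here serve as a check on differences in handling between libraries that could also move Klf4, a Krüppel-like transcription factor expressed in differentiating mesenchyme and epithelium. Fos, Fosb, Junb, Egr1, Egr2, Egr3, Atf3, Ier2, Nr4a1 and Dusp1 were taken by symbol from the deposited table, which held 10 of 10 of them among 25899 symbols.

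RNA came from the apical portion of the mesenchyme of mouse mandibular first molars at postnatal day 7.5. The 3 mutant libraries were from mice with the genotype Gli1-CreER;Bmpr1afl/fl, and the 3 control libraries were from littermates with the genotype Bmpr1afl/fl. Both groups carried the floxed Bmpr1a alleles on a mixed C57Bl6/129S6/SvEvTac background. CreER is a recombinase that acts after tamoxifen is given, and here it was driven from the Gli1 locus, so only cells that express Gli1 and their descendants could lose the BMP receptor; the labels give neither the tamoxifen schedule nor whether controls received it. Per the labels, 4 libraries, numbered 1 and 2 in each genotype, came from litter 1, and the libraries numbered 3 came from litter 2. The labels do not say whether a library held 1 animal or several.

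The libraries held 15916045 to 20609420 reads on genes, and levels are given in RPM, reads per 1000000 mapped reads. All 7 dental mesenchyme markers were detected above 3 reads in at least some libraries, among them Msx1, at 91.2 to 305 RPM. The summed level of these 7, most of it Col1a1 (4871 to 28920 RPM), was 18330, 24810 and 16707 RPM in controls 1 to 3. It was 31023, 19582 and 7199 RPM in mutants 1 to 3. Markers of other cell types differed in level between libraries. The summed level of 10 enamel epithelium markers was 4923, 2335 and 39307 RPM in controls 1 to 3 and 49686, 5335 and 20535 RPM in mutants 1 to 3. The summed level of 4 odontoblast markers was 311 RPM in mutant 3, 1307 RPM in control 3 and 4879 to 8149 RPM in the others. The summed level of 6 osteoblast markers was 923, 1659 and 1532 RPM in the controls and 1521, 1330 and 501 RPM in the mutants. The summed level of 4 erythroid markers was 1417 RPM in control 3 and 130 to 428 RPM in the others. The summed levels of markers were 221 to 348 RPM for endothelium, 237 to 430 RPM for macrophages and osteoclasts, 16.7 to 22.1 RPM for glia, 3.32 to 11.6 RPM for neutrophils and mast cells and 1.01 to 7.06 RPM for muscle, of whose 5 markers Ckm was at or under 3 reads in every library. No enamel epithelium, odontoblast, osteoblast or erythroid marker was at or under 3 reads in every library, and the part of these cells in the results below was not tested. In bulk RNA, fewer cells of a type and less RNA per cell cannot be told apart.

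No immediate early gene passed the test between genotypes. Of the 10, 7 lay above the gene's own median library in control 1, 7 in control 2 and 3 in control 3, where 66.4%, 53.4% and 37.0% of all genes tested lay above theirs. In mutants 1 to 3 the counts were 6, 1 and 6 of 10, where the shares over all genes were 26.0%, 63.1% and 54.1%. Mutant 2 was thus the library with the fewest of the 10 above their median. Mutants 1 and 3 and controls 1 and 2 had more than the share over all genes. Of the 10, 8 reached a mean of 1 RPM and were tested, and 0 of 8 had an adjusted p under 0.05 by limma with Benjamini-Hochberg adjustment, against 0% of the 14444 genes tested. At an unadjusted p under 0.05 the count was also 0 of 8, against 1.05% of all genes, and limma voom on recovered reads gave 0 of 8 at either threshold. Of the 8, 5 were lower and 3 higher in mutants by sign, with a median log2 change of -0.032, beside -0.013 over all genes tested, of which 54.4% were lower. The groups did not overlap for 1 of the 8, Nr4a1, which was lower in all mutants; of all genes tested, 2.64% did not overlap in either direction and 1.67% were lower. Fosb and Egr2 lay below the limit of 1 RPM and are described from a fit without that limit.

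Promoters of immediate early genes are where these signals are read, through short binding sites. RefSeq windows on GRCm38.p6 were found for 7 of the 10 genes and for Klf4; Egr1, Egr3 and Ier2 were not among them. In the 250 bases before each start, 5 motifs were searched on both strands. The 5 were the CArG box, which serum response factor binds, the cyclic AMP element TGACGTCA and its core TGACG, the AP-1 site TGANTCA and the EGR site GCGNGGGCG. The core lies inside the full cyclic AMP element, so each full element also counts as a core. Of 32817 such windows, 1.47% held a CArG box, 1.55% held TGACGTCA, 17.7% held TGACG, 6.75% held TGANTCA and 4.7% held GCGNGGGCG. The windows below are those of Fos, the reference for joint variation, of Nr4a1 and Klf4, whose groups did not overlap, and of Dusp1, the steadiest of the 10, with all matches in capitals. They are written along the gene's strand, and for Dusp1 the stretch is limited to 100 bases outside annotated exons.
Fos, chr12:85473640-85473889, plus strand: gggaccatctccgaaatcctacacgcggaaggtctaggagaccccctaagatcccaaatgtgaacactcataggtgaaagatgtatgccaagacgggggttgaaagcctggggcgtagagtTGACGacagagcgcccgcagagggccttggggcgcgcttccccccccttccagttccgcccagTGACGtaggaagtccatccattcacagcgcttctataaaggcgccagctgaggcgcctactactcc
Nr4a1, chr15:101266596-101266845, plus strand: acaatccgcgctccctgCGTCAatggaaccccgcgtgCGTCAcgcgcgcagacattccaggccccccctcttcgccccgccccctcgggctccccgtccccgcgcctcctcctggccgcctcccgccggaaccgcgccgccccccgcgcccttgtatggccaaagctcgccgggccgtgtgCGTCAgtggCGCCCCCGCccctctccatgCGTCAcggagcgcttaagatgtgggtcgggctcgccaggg
Klf4, chr4:55532476-55532725, minus strand: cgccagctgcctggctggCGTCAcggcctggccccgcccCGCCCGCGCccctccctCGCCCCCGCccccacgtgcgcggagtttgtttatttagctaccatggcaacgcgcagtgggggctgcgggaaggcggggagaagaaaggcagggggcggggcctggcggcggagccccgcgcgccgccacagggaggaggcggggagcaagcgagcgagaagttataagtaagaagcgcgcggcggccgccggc
Dusp1, chr17:26508583-26508682, minus strand: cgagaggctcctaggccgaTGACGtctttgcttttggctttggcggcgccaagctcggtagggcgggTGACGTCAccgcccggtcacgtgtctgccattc

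In the Fos window the core TGACG matched at 2 places, and in that of Nr4a1 its reverse matched at 4 places, with 1 EGR site on the reverse strand. The Klf4 window held 1 core and 2 EGR sites, all on the reverse strand. Of the 7 genes, Dusp1 alone had the full cyclic AMP element in its window, and Egr2 alone had a CArG box. Egr2 has 5 starts in the table, and CArG boxes were found before 4 of them, at 2 positions, shown in capitals with 10 bases on either side.
Egr2, chr10:67537484-67537513, plus strand: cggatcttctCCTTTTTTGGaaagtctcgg
Egr2, chr10:67537787-67537816, plus strand: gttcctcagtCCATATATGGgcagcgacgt
Neither Fosb, Junb nor Atf3 had a match other than the core TGACG, except for 1 EGR site of Fosb, and TGANTCA matched in none of these windows. A match is a description of these letters, and no binding was measured.

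Levels per length placed most of the 10 genes low among the genes of this tissue. Lengths were exon unions from GENCODE release M21 of GRCm38, available for 12965 of the 14444 genes tested (89.8%) and for all 10 members; the authors' own gene models are not given in the sources used here. Ier2, which encodes a small nuclear regulator of transcription, had the highest level per length of the 10, at 24.7 ± 4.24 RPM per kb (mean ± SD over the 6 libraries), above 89.4% of genes tested. Junb followed at 6.96 ± 0.959, Dusp1 at 3.98 ± 0.368 and Egr1 at 3.25 ± 1.31 RPM per kb. The spreads of Dusp1 and Egr1 overlapped. Nr4a1 (1.81 ± 0.568), Egr3 (1.44 ± 0.849), Fos (1.41 ± 0.379) and Atf3 (1.07 ± 0.835 RPM per kb) lay close together, within their spreads. Fos exceeded only 18.6% of genes tested in level per length. Egr2, at 0.273 ± 0.0666 RPM per kb, and Fosb, at 0.151 ± 0.121, were the lowest.

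**Figure D1:**
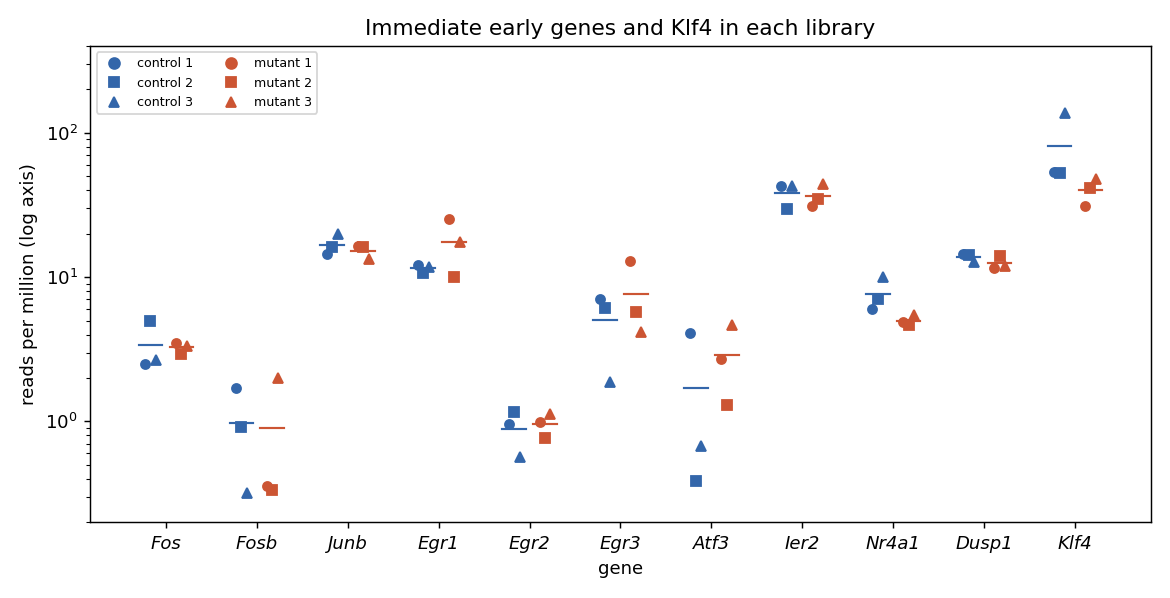
Level of each of the 10 immediate early genes and Klf4 in RPM (vertical log axis) in the 6 libraries; blue symbols are controls, red symbols are mutants, the symbol shape is the library number and the bars are group means. Levels are not divided by gene length, so heights compare libraries within a gene. The groups are apart for Nr4a1 (4.69 to 5.45 RPM in mutants, 5.99 to 10.03 in controls) and for Klf4, and they overlap for the other 9 genes.

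Fos, Fosb, Junb and Atf3 encode basic leucine zipper proteins; Fos and Jun family members pair to form AP-1, and ATF3 is a stress-induced member of the CREB family that often represses. The Fos level was 2.501, 4.97 and 2.68 RPM in controls 1 to 3, in that order, and 3.48, 2.93 and 3.35 RPM in mutants 1 to 3; all values below keep this order. The mutants lay between the lowest and the highest control, and control 2 was the highest library. The log2 change, taken as the mutant mean less the control mean of log2(RPM + 1), was -0.0021 (SE 0.25; 95% interval -0.59 to 0.59; limma, unadjusted p 0.994). These values rest on 76 to 142 reads per library. The exact 95% Poisson interval of control 2, 4.18 to 5.85 RPM, lay above that of the other 2 controls, and it covers counting error only.

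Fosb was at 1.71, 0.909 and 0.318 RPM in the controls and at 0.355, 0.333 and 2.01 RPM in the mutants. Control 1 and mutant 3, from different litters and genotypes, were the 2 highest libraries. The lowest 3 rested on 9 or 10 reads each. In the fit without a limit on low values the change was -0.11 (SE 0.42; limma, unadjusted p 0.807). Atf3 had the widest range of the 10, 12.1-fold between libraries, with 4.08, 0.385 and 0.671 RPM in the controls and 2.70, 1.30 and 4.65 RPM in the mutants. Again mutant 3 and control 1 were the highest, and control 2, at 11 reads, was the lowest. The Atf3 change was 0.68 (SE 0.55; limma, unadjusted p 0.254; adjusted p 1.00), and 1.23 by limma voom on recovered reads (unadjusted p 0.2). Single libraries moved the Atf3 value: it was 1.26 without control 1 (limma, unadjusted p 0.0195; adjusted p 1.00), 0.32 without control 2 and 0.36 without mutant 3, and 0.14 in litter 1 alone. Its SD over the libraries exceeded that of 96.5% of genes tested. Junb varied little, at 14.4, 16.1 and 19.7 RPM in the controls and 16.5, 16.1 and 13.2 RPM in the mutants, with a change of -0.12 (SE 0.18; limma, unadjusted p 0.511). The exons of Junb share 173 bases with those of Prdx2 on the opposite strand, a gene at a mean of 279.9 RPM. Strand use in the counting is not given in the sources used here, so reads of the Junb end cannot be assigned with certainty.

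Egr1, Egr2 and Egr3 encode zinc finger proteins that bind GC-rich sites. Egr1 was at 12.2, 10.7 and 11.8 RPM in the controls, a narrow range, and at 25.3, 10.05 and 17.5 RPM in the mutants. Mutants 1 and 3 lay above all controls, and mutant 2 lay below them. The change was 0.48 (SE 0.31; 95% interval -0.24 to 1.203; limma, unadjusted p 0.156), and it was 0.82 without mutant 2 (limma, unadjusted p 0.00907; adjusted p 1.00) but 0.19 without mutant 1 (limma, unadjusted p 0.488). Egr3 was highest in mutant 1 as well, at 13.004 RPM, and lowest in control 3, at 1.87 RPM, with 4.15 to 7.01 RPM in the other 4. The Egr3 change was 0.52 (SE 0.50; limma, unadjusted p 0.331), and it was 0.056 without control 3, 0.11 without mutant 1 and 0.83 without mutant 3. Egr3 thus ranged 6.95-fold between libraries, and its SD exceeded that of 95.1% of genes tested. Mutant 1, where Egr1 and Egr3 were highest, also had the highest summed levels of enamel epithelium, odontoblast and muscle markers. Control 3, where Egr3 was lowest, had the next to highest summed enamel epithelium level. The part of these markers was not tested. Egr2 was at 0.565 to 1.15 RPM, on 16 to 33 reads per library, with control 3 the lowest and a change of 0.063 (SE 0.14; limma without a limit on low values, unadjusted p 0.681).

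Ier2 was at 43.0, 29.7 and 42.9 RPM in the controls and at 31.2, 35.0 and 44.0 RPM in the mutants. The groups overlapped over nearly their whole range, with a change of -0.062 (SE 0.20; limma, unadjusted p 0.766). Dusp1 encodes a phosphatase that shuts off MAP kinases and is itself induced by them. It was the steadiest of the 10, at 14.4, 14.3 and 12.8 RPM in the controls and 11.6, 14.0 and 11.9 RPM in the mutants. Its highest library exceeded its lowest by 1.24-fold, and its SD was larger than that of only 12.9% of genes tested. The Dusp1 change was -0.14 (SE 0.15; limma, unadjusted p 0.4). The exons of Dusp1 share 11 bases with those of Ergic1 on the opposite strand.

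Nr4a1 encodes an orphan nuclear receptor that is induced through cyclic AMP and calcium signalling. Its level was 5.99, 6.99 and 10.03 RPM in the controls and 4.87, 4.69 and 5.45 RPM in the mutants. All mutants lay below all controls, and control 3 was the highest library. The means were 7.67 ± 2.10 RPM in controls and 5.002 ± 0.396 RPM in mutants (SD, n = 3 per group), and the log2 change was -0.51 (SE 0.22; 95% interval -1.02 to 0.0043; limma, unadjusted p 0.0515; adjusted p 1.00). By litter, the Nr4a1 change was -0.37 (litter 1) and -0.77 (litter 2). Without control 3 it was -0.32 (limma, unadjusted p 0.146), and with litter as a block the unadjusted p by limma was 0.022 for the same change.

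Both other members of the NR4A receptor family had the same order of groups; they were looked up as a family after the Nr4a1 values were seen. Nr4a2 was at 5.73, 5.04 and 6.25 RPM in the controls and at 2.24, 3.46 and 4.27 RPM in the mutants. Its groups did not overlap, and the change was -0.65 (SE 0.23; limma, unadjusted p 0.0251; adjusted p 1.00). Nr4a3 was below the limit of 1 RPM and was not tested. It was at 0.527, 0.769 and 0.565 RPM in the controls, on 16 to 22 reads, and at 0.355, 0.333 and 0.419 RPM in the mutants, on 10 reads each. Each of the 3 genes was lower in 3 of 3 mutant libraries than in every control, as were 1.67% of all genes tested; neither tested one passed adjustment.

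**Figure D2:**
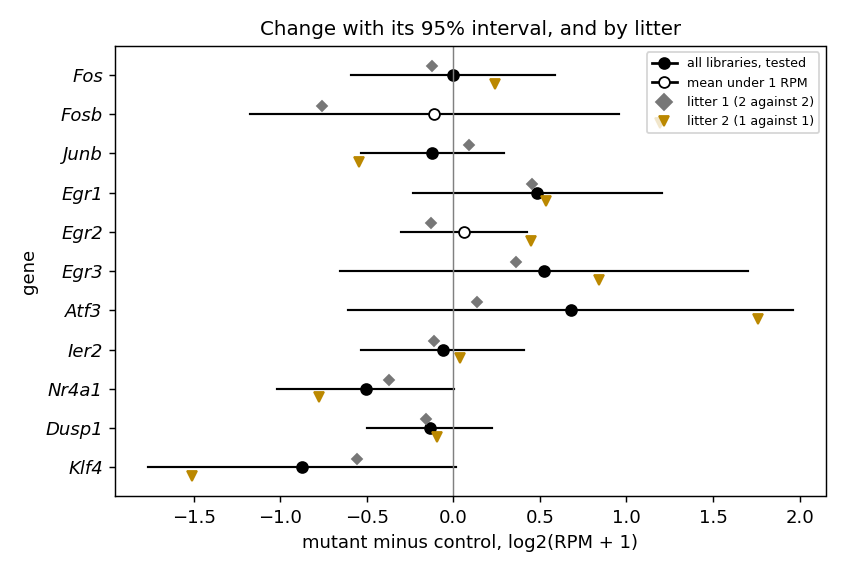
Log2 change, mutant minus control in log2(RPM + 1), for each gene (vertical axis); circles with lines give the limma estimate and its 95% interval over all 6 libraries, open circles the 2 genes under a mean of 1 RPM. Diamonds give litter 1 and triangles litter 2, which has 1 library per genotype. The interval of each gene includes 0, and the Klf4 change was -1.51 in litter 2 against -0.56 in litter 1.

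Among 41 other early response genes, listed with earlier results of these data known, 40 were in the table and 35 were tested. Of these 35, 0 passed adjustment by limma with Benjamini-Hochberg, 1 had an unadjusted p under 0.05 (Nr4a2, lower, against 0.692% of all genes lower at that level), 14 were lower and 21 higher by sign. Their median change was 0.055. Besides Nr4a2, the groups did not overlap for Klf2, at 24.8 to 25.6 RPM in controls and 17.9 to 24.2 RPM in mutants (change -0.21; limma, unadjusted p 0.224). Jun, the main partner of Fos in AP-1, was at 68.4, 31.2 and 35.1 RPM in the controls and 63.2, 45.7 and 72.0 RPM in the mutants (change 0.48; limma, unadjusted p 0.17). As for Fosb and Atf3, control 1 and mutant 3 were its 2 highest libraries. Arc, which neurons induce on activity, ranged most of the 35 tested, 12.8-fold, from 0.282 RPM in control 3 to 3.62 RPM in mutant 1, the same 2 libraries as for Egr3. Btg2, an antiproliferative gene, ranged 4.06-fold (change 0.68; limma, unadjusted p 0.144). Ctgf, a matrix-associated growth regulator, ranged 3.12-fold and the Krüppel-like factor gene Klf6 3.10-fold, both with overlapping groups. Egr4 was at or under 3 reads in every library.

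Of 16 upstream kinases and transcription factors, among them the serum response factor gene Srf, 0 had an unadjusted p under 0.05 by limma, and their changes ran from -0.19 to 0.18 (median -0.022). The widest of these were Rps6ka5 (2.31-fold between libraries), Mapk3 (2.15-fold), Rps6ka1 (2.12-fold) and Srf (1.59-fold). Of 11 feedback inhibitors, also 0 had one, with a median of 0.053; Dusp5 (-0.38), Spry1 (0.38), Dusp4 (0.053) and Spry4 (-0.011) ranged most between libraries. Of 10 genes of the hypoxia response, 0 had one (2 with the replicate block), with a median of 0.060. Hk2, a glycolytic kinase, ranged 5.35-fold and the glucose transporter gene Slc2a1 4.004-fold, both lowest in control 2 and highest in mutant 3. Adm (3.47-fold) and Egln3 (2.80-fold) followed.

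Heat shock genes respond to protein damage and, like immediate early genes, to the dissociation of tissue. Of 11 tested, 0 passed adjustment by limma with Benjamini-Hochberg, 9 were higher and 2 lower by sign, and the median change was 0.061; of all genes tested, 45.6% were higher by sign. Hspa1b had an unadjusted p under 0.05, as had 0.36% of all genes in that direction. It was at 24.9, 17.8 and 21.2 RPM in the controls and 36.3, 23.2 and 51.0 RPM in the mutants, so that mutants 3 and 1 were highest and mutant 2 lay within the controls (change 0.71, SE 0.28; limma, unadjusted p 0.0407; adjusted p 1.00). Without mutant 3 the change was 0.44 (limma, unadjusted p 0.122). Hspa1a, its near-identical copy, was also highest in mutants 3 and 1, at 37.6 and 29.4 RPM, against 18.4 to 22.3 RPM in the others; reads shared between the 2 copies make their separate values uncertain. Hsph1 (change 0.061) and Hspb1 (0.29) ranged 1.77-fold and 1.76-fold between libraries.

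The 10 genes did not share a highest library. It was mutant 3 for 3 genes (Fosb, Atf3 and Ier2), control 2 for Fos and Egr2, control 3 for Junb and Nr4a1, mutant 1 for Egr1 and Egr3, and control 1 for Dusp1. Of all genes tested, 23.8% were highest in mutant 3, 18.6% in control 2, 13.5% in control 3, 7.32% in mutant 1 and 17.4% in control 1. Mutant 2 was highest for 0 of the 10 genes and for 19.5% of all genes. The summed level of the 10 was 106, 91.4 and 103 RPM in the controls and 110.0, 90.9 and 107 RPM in the mutants, a range of 1.21-fold. Over the 45 pairs of the 10 genes, Pearson's r of log2(RPM + 1) over the 6 libraries was positive for 20 and negative for 25, with a median of -0.062 and a range from -0.87 to 0.65. These pairs share libraries and depth and are given as a description.

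**Figure D3:**
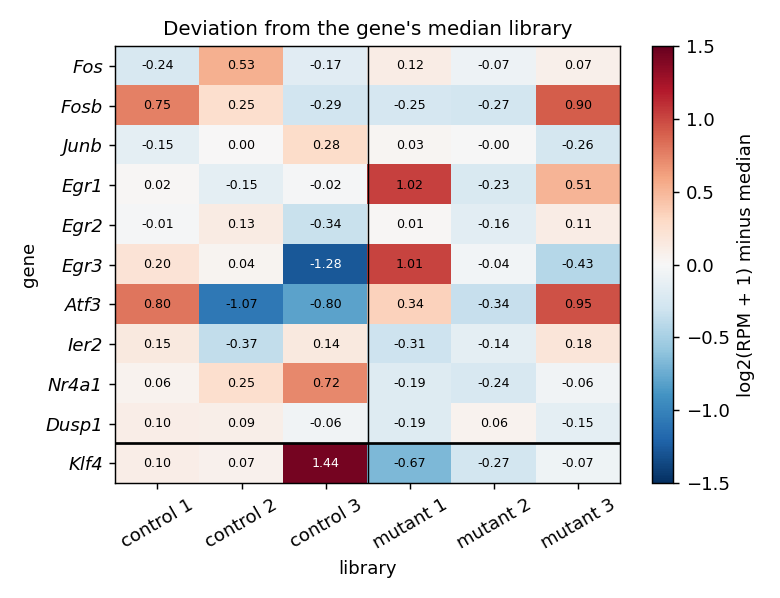
Deviation of each gene (rows) from its median over the 6 libraries (columns), in log2(RPM + 1); red is above and blue below the median, and the heavy line separates Klf4 from the 10 immediate early genes. Klf4 was 1.44 above its median in control 3, where Nr4a1 was 0.72 above and Egr3 and Atf3 were 1.28 and 0.80 below theirs.

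Klf4 stood apart in control 3. Its level was 53.6, 52.4 and 137 RPM in the controls and 30.9, 41.2 and 47.5 RPM in the mutants. The groups did not overlap, and the change was -0.87 (SE 0.38; limma, unadjusted p 0.0532; adjusted p 1.00); with litter as a block the unadjusted p by limma was 0.00676 for the same change (adjusted p 1.00). In control 3, 3 of the 10 immediate early genes had their lowest level (Fosb, Egr2 and Egr3), 2 had their highest (Junb and Nr4a1), and 5 lay between. Of all genes tested, 31.0% were lowest in control 3 and 13.5% highest there. Without control 3 the Klf4 change was -0.42 (SE 0.20; limma, unadjusted p 0.0764), and in litter 1 alone it was -0.56 (SE 0.18; limma, unadjusted p 0.0229).

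Some markers of other cell types were, like Klf4 and Nr4a1, highest in control 3. All 6 osteoblast markers were lower in mutants by sign, with a median change of -0.47, against 54.4% of all genes lower. Other lists also had mostly 1 sign. All 4 odontoblast markers (median -0.63), all 5 endothelial markers (median -0.15) and 5 of 7 dental mesenchyme markers (median -0.18) were lower. Higher by sign were 9 of 10 enamel epithelium markers (median 0.92) and all 4 neutrophil and mast cell markers (median 0.38). The odontoblast sum was highest in mutant 1, where Klf4 was lowest, and next to lowest in control 3, where Klf4 was highest. The mean RPM of the odontoblast markers Dspp (3231 in controls, 3876 in mutants) and Phex (333 and 417) was higher in mutants, against the sign of their log2 changes. So was that of the osteoblast marker Bglap (482 and 540), whose log2 change was -0.27. At an unadjusted p under 0.05, 2 of the 6 osteoblast markers were lower, against 0.692% of all genes. Ibsp, which encodes bone sialoprotein, was at 35.5, 65.9 and 154 RPM in the controls and 29.9, 23.6 and 25.7 RPM in the mutants; its groups did not overlap (change -1.41, SE 0.47; limma, unadjusted p 0.0195; adjusted p 1.00), and without control 3 the change was -0.86. Spp1, which encodes osteopontin, was at 4.54, 96.1 and 159 RPM in the controls and 3.36 to 5.20 RPM in the mutants (change -3.05, SE 1.14; limma, unadjusted p 0.0312; adjusted p 1.00). Single libraries moved the Spp1 change. It was -4.55 without control 1 and then passed adjustment (limma, Benjamini-Hochberg, adjusted p 0.034), -2.48 without control 2 (limma, unadjusted p 0.0729) and -2.12 without control 3 (limma, unadjusted p 0.0913). Both Ibsp and Spp1 were highest in control 3, as Klf4, Nr4a1 and the osteoblast marker Runx2 were. Bglap was highest in mutant 1, and the summed osteoblast level was highest in control 2. Among the glial markers, S100b was lower by sign (-0.54; limma, unadjusted p 0.0306), without overlap and highest in control 3. No marker outside the osteoblast and glial lists had an unadjusted p under 0.05 by limma. Control 3 also had the highest summed erythroid level and the next to highest summed enamel epithelium level. The part of these markers in the Klf4 and Nr4a1 values was not tested.

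Joint variation with Fos and with Klf4 was computed for 19 pairs over the 6 libraries. For Fos, r ran from -0.74 (Ier2) to 0.65 (Egr2), and the smallest exact permutation p was 0.0708 (adjusted p 0.449). With Klf4, Fos had an r of -0.32 and a rho of -0.54 (exact permutation p 0.46 and 0.297; adjusted p 0.794 and 0.897). Without controls 1 and 2, the libraries farthest from the Fos median, that r was -0.82, and in the 4 libraries of litter 1 it was 0.049. Klf4 and Nr4a1 had an r of 0.95 (exact permutation p 0.00694; adjusted p 0.132) and a rho of 0.89 (exact permutation p 0.0333; adjusted p 0.633). Without control 3 and mutant 1, the libraries farthest from the Klf4 median, r was 0.88, and in litter 1 it was 0.78. Klf4 and Egr3 had an r of -0.89 (exact permutation p 0.0361; adjusted p 0.343) and a rho of -0.49 (exact permutation p 0.356; adjusted p 0.897). Without those 2 libraries it was 0.40, so that relation rests on them; in litter 1, which holds mutant 1, it was -0.79. All p-values are two-sided, and no pair passed adjustment over the 19. The values in litter 1 rest on 4 libraries and are given as a description; litter 2, with 2 libraries, gives none.

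**Figure D4:**
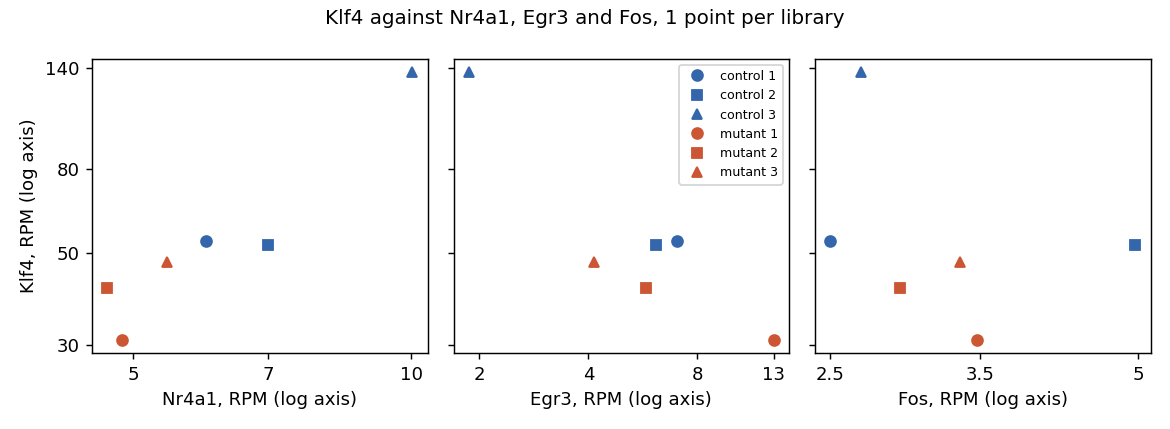
Klf4 level (vertical log axis, RPM) against that of Nr4a1, Egr3 and Fos (horizontal log axes, RPM), 1 point per library; colour gives genotype and shape the library number. Control 3, at 137 RPM of Klf4, has the highest Nr4a1 level (10.03 RPM), the lowest Egr3 level (1.87 RPM) and a Fos level of 2.68 RPM.

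Of 11810 other genes whose mean reached 5 RPM, those most like Fos in log2(RPM + 1) over the 6 libraries were Ube4a (r = 0.98), Nuak1 (0.96), Scoc (0.92), Arid5b (0.91), Iars2 (0.91), Synrg (0.91), D030016E14Rik (0.91), Snx14 (0.90), Cx3cl1 (0.89) and Gnao1 (0.89). All 10 of these were highest in control 2, as Fos was, which follows from how they were chosen. None belonged to the other early response genes. Of those, 31 were among the 11810 ranked, so by share alone few or none would be among 10. The median r of these 31 with Fos was -0.045, beside -0.027 over all genes ranked. Klf4 ranked 8548 in this order. Likeness over 6 libraries is a description.

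Litters differed at an unadjusted p under 0.05 for 2 of these genes and not for the other 7 tested. The fit had litter and genotype as terms, and this comparison was chosen after the data were seen. Over all genes, 20.9% had such a p, a share close to that here, and 0.872% an adjusted p under 0.05 (limma, Benjamini-Hochberg). Egr3 was lower in litter 2 by sign, a log2 difference of -1.16 (limma, unadjusted p 0.00892; adjusted p 0.133). Klf4 was higher in litter 2, a difference of 0.88 (limma, unadjusted p 0.00873; adjusted p 0.132). The other 7 tested genes had unadjusted p-values by limma from 0.0881 to 0.847. The change between genotypes was in opposite directions in the 2 litters for Fos (-0.12 in litter 1 and 0.24 in litter 2), Fosb (-0.76 and 1.19), Junb (0.089 and -0.54), Egr2 (-0.13 and 0.45) and Ier2 (-0.11 and 0.037). Litter 2 has 1 library per genotype, and Fosb and Egr2 rest on as few as 9 and 16 reads. The share of all genes with opposite directions was not counted, so these signs are a description. In no tested member did the litter-by-genotype term, the difference between the changes in the 2 litters, have an unadjusted p under 0.05 by limma, against 5.06% of all genes; the smallest was 0.0839, for Junb.

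By the annotation of GRCm38, the build that the submitters' processing notes name as mm10, Fos lies on chromosome 12 (85473890 to 85477273), Fosb on 7 (19302696 to 19310051), Junb on 8 (84974484 to 84978718) and Ier2 on 8 (84661331 to 84662852). Egr2 lies on chromosome 10 (67535475 to 67542188), Egr3 on 14 (70077203 to 70082614), Atf3 on 1 (191170296 to 191218039), Nr4a1 on 15 (101254269 to 101274795), Dusp1 on 17 (26505590 to 26562128) and Klf4 on 4 (55527143 to 55532466). Values count reads over a gene as a whole. No split into exons, introns or UTRs was used here.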

How the data were processed

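Per the labels' protocols, poly(A) RNA was read on an Illumina NextSeq; TopHat2 and mm10 are named in the submitters' processing notes, and the counting program is not given in the sources used here. The authors deposited log2 values for 25899 gene symbols in 6 libraries, titled as normalized RPKM. Raised as powers of 2, 100% of values above each column's minimum were whole multiples, within 0.1%, of 1 step per column shared by all genes, so length had not been divided out. They were treated as RPM, with a denominator inferred from the step; the minimum, 0.9 of a step, stands for 0 reads. One read was worth 0.0329 to 0.0419 RPM and 3 reads 0.0987 to 0.126 RPM. Intervals and floors cover counting error only.

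The main test was limma 3.58.1 in R 4.3.3 (lmFit, eBayes with trend, no covariate, two-sided) on log2(RPM + 1) for the 14444 genes whose mean reached 1 RPM, with Benjamini-Hochberg adjustment over all of them; this scale understates changes of low genes. Tested on simulated data for mutant against control with 14442 genes, it recovered 96% of genes made 2-fold higher and 96% of those made 0.5-fold. The simulated counts had the same fixed dispersion for every gene and no difference between litters or in cell mixture. These shares therefore check the procedure and do not give its power in the real libraries. Correlations used exact permutation over 720 orders. Columns were matched to samples by title. Nothing in the labels says that libraries are separate animals, so p-values measure the spread between these libraries. Members and lists were chosen with earlier results of these data known. Named from the lists were genes with an unadjusted p under 0.05, and up to 4 per list with the widest range between libraries, and the 10 genes most like Fos. A marker gene that this rule names is not reported here. Alternatives were the pseudocount, the filter, scaling, the variance model, limma voom on recovered reads, litter or replicate blocks, litter 1 alone and leaving out each library.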

Additional observations from a re-analysis of the deposited data

Results flagged for a closer look

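The Klf4 change was -0.56 in litter 1 and -1.51 in litter 2, a gap of -0.95 on the log2(RPM + 1) scale that did not pass adjustment (limma, litter-by-genotype term, unadjusted p 0.0237; adjusted p 0.868). Over all genes tested, 5.06% had an unadjusted p under 0.05 for that term. Litter 2 has 1 library per genotype, and control 3 is the library with 137 RPM of Klf4, so litter and library cannot be told apart. With 3 libraries per group, no group was tested for a library that stands apart.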

How the results depend on the processing

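No member had an adjusted p under 0.05 by limma with Benjamini-Hochberg in any of 16 alternatives (4 to 6 members lower; median change -0.092 to 0.063, and -0.042 to 0.063 with each library left out). Members with an unadjusted p under 0.05, reported as 0, were 1 (Nr4a1) with eBayes without trend, 1 (Nr4a1) with litter as a block and 1 (Nr4a1) with the replicate block. With each library left out the count ran from 0 to 2: Atf3 (1.26) and Nr4a1 (-0.65) without control 1, and Egr1 (0.82) without mutant 2. The cause was not tested. Nr4a1 ran from -0.65 to -0.32 and Klf4 from -1.11 to -0.42 over their alternatives; Klf4 was under an unadjusted p of 0.05 by limma in 5 of 17. These 17 include the mean level of the 10 members as a covariate, added after the data were seen (-0.73, SE 0.36; limma, unadjusted p 0.0896). Fos, at -0.0021, was at 0.0098 with a pseudocount of 0.1, 0.011 and 0.013 under median-of-ratios and upper-quartile scaling and 0.013 with voom, and from -0.14 to 0.24 with each library left out. Ier2 ran from -0.23 to 0.046 likewise, and Junb was at 0.089 in litter 1 alone. Under median-of-ratios scaling r with Fos changed sign for Fosb (-0.11), Junb (0.15), Nr4a1 (0.061) and Dusp1 (0.013). Nr4a2 was under an unadjusted p of 0.05 by limma in 11 of 15 alternatives, Hspa1b in 10 of 16, Ibsp in 16 of 16, S100b in 9 of 15 and Spp1 in 8 of 16 (Spp1 was -2.23 in litter 1 alone, unadjusted p 0.114). Other early response genes with an unadjusted p under 0.05 by limma, reported as 1, were 0 to 3 over the alternatives, as were heat shock genes, also reported as 1. Feedback inhibitors, reported as 0, were 1 without control 1, hypoxia genes, reported as 0, were 2 with the replicate block, and upstream genes stayed at 0. Replicate numbers come from the column names; deviations of same-numbered libraries from their group means correlated, across genes, at -0.034, 0.75 and 0.50, so the numbers were not taken to pair the libraries. With the replicate block Klf4 had an unadjusted p of 0.00748 and Nr4a1 of 0.0328 (limma), and neither passed adjustment. The unadjusted count over all genes, 152, was 524 with that block, 293 blocked by litter, 319 using litter 1 only, 334 with no filter and 103 at a mean of 5 RPM. Leaving out 1 library moved it from 68 (without mutant 1) to 325 (without control 1), with 120 without control 2, 240 without control 3, 261 without mutant 2 and 214 without mutant 3; without control 1, 1 gene, Spp1, passed adjustment. Depth limits Fosb (9 to 52 reads per library) and Egr2 (16 to 33), the members below 1 RPM.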
